A study of Takifugu obscurus with 9 samples.

Results

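The genes described here are those of glycolysis and gluconeogenesis in the kidney of the obscure puffer (Takifugu obscurus). They were taken from the deposited table as the features whose best protein match is a fish protein and which carry the KEGG pathway term Glycolysis / Gluconeogenesis, plus the glucose transporter slc2a1. Names starting with ALDH were left out, and 1 feature stood for each name, the one with the highest mean over all libraries. A feature is a group of transcripts that the assembly joined, and is read here as 1 gene. The rule gave 50 members out of 46444 features. Of these, 45 are enzymes of the pathway or its side steps, 1 is the transporter, and 4 (arid5a, arid5b, luc7l3 and uevld) are described as other proteins although the table gives them the pathway term. The best match was a protein of Takifugu rubripes for 46 members, and 19 members stand for several fish-matched features of 1 name.

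Kidneys of 3-month-old fish were collected from controls at 0 h and from fish 12 h and 48 h after poly(I:C), an artificial double-stranded RNA used to mimic a virus infection. There were 3 libraries at each time, each from whole kidney without any sorting of cells. The labels do not say whether the replicates were separate fish, pools or repeated preparations, so the p-values speak only of the spread among these libraries, which may be technical. No controls were labelled for 12 h or 48 h, and the labels do not say whether the 0 h fish were injected, so treatment cannot be told apart from time and handling.

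Glycolysis splits glucose into pyruvate in the cytosol and yields ATP, and pyruvate then enters the mitochondria through the pyruvate dehydrogenase complex or is turned into lactate. Gluconeogenesis runs most of the same reactions backwards and bypasses the irreversible steps with its own enzymes, chiefly phosphoenolpyruvate carboxykinase, fructose-1,6-bisphosphatase and glucose-6-phosphatase. In mammals the kidney is, with the liver, the organ that makes glucose, and within it the proximal tubule holds the gluconeogenic enzymes while other segments and blood cells mostly consume glucose. The fish kidney is both a renal and a blood-forming organ, so whole kidney RNA can mix these cell types.

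Levels are given in TPM, an abundance corrected for feature length and library total. The table holds no read counts. From the spacing of its low values each library was estimated to hold 24100000 to 30800000 reads, and on a feature 2000 nucleotides long 1 read was worth 0.0285 to 0.0367 TPM. Fold changes are differences of log2(TPM + 1) and so understate the change of low genes. Tests were by limma over 45473 features with Benjamini-Hochberg adjustment, and a member is said to rise or fall only at an adjusted p under 0.05. The filter on low values left 46 of the 50 members. The 4 that did not pass it were the lactate dehydrogenase ldhb, the muscle phosphofructokinase pfkm, the muscle phosphoglycerate mutase pgam2 and tdh3.

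Control library 3 stood apart from its group, and 12 h library 3 lay between its fellows in most members. Across 11329 features, which are not independent, control libraries 1 and 2 had a correlation of 0.985, while control library 3 had 0.857 and 0.864 with them. Pairs within the 12 h and 48 h groups lay between 0.879 and 0.967. The 12 h library 3 had 0.947 and 0.967 with 12 h libraries 1 and 2, which had 0.879 with each other. Among the members, control library 3 was below both fellow controls in 31 of 46 and at least 2-fold below their mean in 9, among them gapdh, gck and g6pc. These counts were not made over all features, so they do not show anything particular to the members. The 12 h library 3 lay strictly between 12 h libraries 1 and 2 in 40 of 46 members (87.0%), against 47.8% of all features tested, a share that counts many low features. Without that library, without 12 h library 2 or without control library 2, limma called 0 members in any comparison. Calls of members are given also without 12 h library 3, and those at 12 h against 0 h also without control library 3. Of 19 calls on further features of the pathway and on genes of related or marker lists, 17 held without control library 3 and 4 without 12 h library 3. Some of the 19 compare 48 h with 12 h. Leaving out control library 3 cannot move their fold changes, so their holding says little about that library. The calls lost without it, of akr1b1 and lgals3, were at 12 h against 0 h.

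At 12 h, 3 members passed against 0 h. The transporter slc2a1 and the dehydrogenase gapdh fell and glucokinase (gck) rose. These are 6.52% of the 46 members tested, beside 1.42% of all features (0.592% higher and 0.831% lower). Members are mostly well expressed, and among the 42 members and 17292 features kept by a filter of 5 TPM the shares were 7.14% and 4.42%. The 7.14% counts gck, which passed that filter only through the 12 h libraries, where it was high. The filtered shares therefore do not show that members were called more often than other features. The libraries of the groups did not overlap in 5 members with 12 h higher (10.9%, against 8.25% of all features) and in 4 with 12 h lower (8.70%, against 12.7%). The median change was -0.05 over the members and -0.07 over all features. In bulk tissue, fewer cells of a type and less RNA per cell cannot be told apart.

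The transporter slc2a1 (GLUT1) lets glucose cross the plasma membrane down its gradient and supplies most cells in vertebrates. It stood at 6.97, 6.88 and 6.48 TPM at 12 h, against 16.2, 15.9 and 15.6 TPM at 0 h. The libraries of the groups were far apart relative to their spread. The mean was 6.78 ± 0.261 TPM at 12 h, against 15.9 ± 0.301 TPM at 0 h (SD, n = 3 each), a log2 fold change of -1.12 (SE 0.16, limma adjusted p 0.0189). At 48 h it stood at 11.9, 16.3 and 12.0 TPM, above every 12 h library and overlapping the controls. The change was 0.87 for 48 h against 12 h (SE 0.16, limma adjusted p 0.0344) and -0.25 for 48 h against 0 h (limma adjusted p 0.58). The fall at 12 h kept its call without control library 3 (limma adjusted p 0.0243) and lost it without 12 h library 3 (limma adjusted p 0.105). The 48 h call was likewise lost without 12 h library 3 (limma adjusted p 0.137) and after quantile normalization (limma adjusted p 0.0738). In 10 fits that left out a library or averaged control libraries 1 and 2, the 12 h call held in 5. The call for 48 h against 12 h held in 2 of them.

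Glucose phosphorylation traps glucose in the cell, and 5 members carry it out. Glucokinase (gck), which in mammals works in liver and pancreatic beta cells with a low affinity for glucose, was low in this kidney. It stood at 8.85, 13.8 and 10.96 TPM at 12 h, against 2.38, 2.22 and 0.87 TPM at 0 h. Every 12 h library was above every control. The mean was 11.2 ± 2.49 TPM at 12 h, against 1.82 ± 0.83 TPM at 0 h (SD, n = 3 each), a log2 fold change of 2.14 (SE 0.42, limma adjusted p 0.0433). At 48 h the libraries stood at 3.56, 0.87 and 0.60 TPM, below every 12 h library, and the change against 12 h was -2.33 (SE 0.42, limma adjusted p 0.0311). The rise at 12 h held its call in 1 of 10 fits that left out a library or averaged control libraries 1 and 2, with limma adjusted p of 0.0692 without control library 3 and 0.163 without 12 h library 3. The fall at 48 h held in 5 of those 10 fits and had a limma adjusted p of 0.122 without 12 h library 3.

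**Figure D1:**
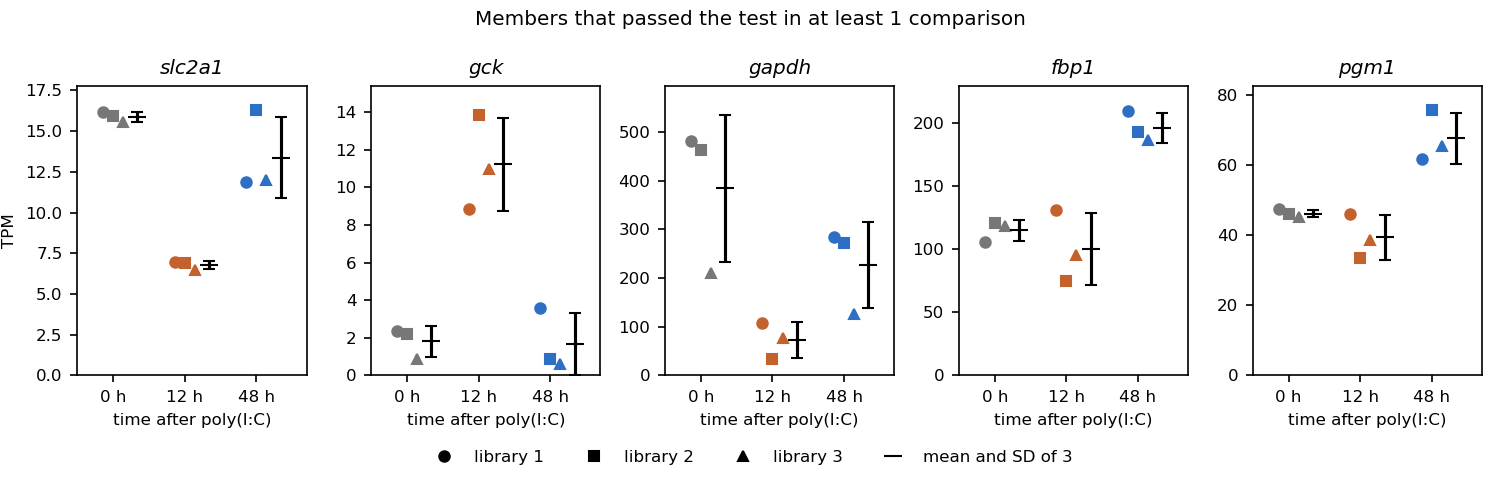
TPM (linear axis from 0) of the 5 members that passed in at least 1 comparison, by time after poly(I:C), with 1 symbol per library and the mean with SD of 3 libraries beside them. slc2a1 was lowest and gck highest at 12 h, gapdh was lowest at 12 h with control library 3 near the 48 h libraries, and fbp1 and pgm1 were highest at 48 h.

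The most abundant hexokinase member, named hk2, is described in the table as a glucokinase-like protein. It stood at 107, 264 and 178 TPM at 12 h, against 140, 127 and 55.9 TPM at 0 h, so the groups overlapped (log2 fold change 0.78, limma adjusted p 0.402). At 48 h it stood at 75.6, 144 and 114 TPM. A second hk2 feature, described as hexokinase-2-like, stood at 65.1, 91.6 and 76.95 TPM at 12 h, against 57.4, 58.0 and 44.9 TPM at 0 h, with a change of 0.53 that did not pass (limma adjusted p 0.199). Hexokinase 1 (hk1), the housekeeping form, did not overlap between 12 h and 0 h but had a small change of 0.38 (limma adjusted p 0.219). Its second feature had the opposite sign, at 17.0, 6.62 and 11.04 TPM at 12 h, against 27.6, 27.4 and 25.2 TPM at 0 h (log2 fold change -1.23, limma adjusted p 0.0631). At 48 h that feature stood at 28.2, 36.9 and 32.2 TPM and had risen against 12 h by 1.49 (SE 0.27, limma adjusted p 0.0327), a call lost without 12 h library 3 (limma adjusted p 0.119). The ADP-dependent glucokinase adpgk, which uses ADP in place of ATP, stood at 16.6, 13.3 and 16.4 TPM at 12 h, against 22.2, 21.3 and 23.4 TPM at 0 h. Its groups did not overlap, but the changes of -0.51 at 12 h (limma adjusted p 0.141) and 0.66 for 48 h against 12 h (limma adjusted p 0.0588) did not pass. A second adpgk feature had the opposite signs, at 8.48, 16.9 and 13.2 TPM at 12 h, against 8.26, 8.52 and 6.6 TPM at 0 h (0.61, limma adjusted p 0.261), and -0.69 for 48 h against 12 h. With the features of this name added up, the changes shrank to -0.09 at 12 h and 0.19 for 48 h against 12 h. The fifth member, hkdc1, lay between 1.91 and 5.88 TPM in all libraries.

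Between glucose 6-phosphate and the triose phosphates no member passed. Aldolase C (aldoc), which in mammals is the aldolase of brain, stood at 341, 400 and 360 TPM at 48 h, against 260, 246 and 251 TPM at 0 h. Every 48 h library was above every control, but the change of 0.54 did not pass (limma adjusted p 0.409). At 12 h it stood at 333, 248 and 295 TPM.

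Glucose-6-phosphate isomerase (gpi) and triosephosphate isomerase (tpi1b) were both abundant, at 386 to 640 TPM and 155 to 359 TPM. In both, every 48 h library was above every 0 h library and every 12 h library, without a call. Their changes for 48 h against 12 h were 0.34 (limma adjusted p 0.212) for gpi and 0.67 (limma adjusted p 0.0831) for tpi1b. Phosphofructokinase, the main control point of glycolysis, was represented by the platelet-type pfkp at 46.7 to 94.1 TPM and the liver-type pfkl at 16.1 to 29.4 TPM, and neither passed. Changes of pfkl were -0.05 at 12 h against 0 h and 0.51 at 48 h against 0 h (limma adjusted p 0.418).

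Lower glycolysis, from glyceraldehyde 3-phosphate to pyruvate, held both the strongest fall and the most abundant member. The glyceraldehyde-3-phosphate dehydrogenase gapdh stood at 108, 34.6 and 76.4 TPM at 12 h, against 481, 462 and 210 TPM at 0 h. Every 12 h library was below every control. The mean was 72.9 ± 36.7 TPM at 12 h, against 384 ± 151 TPM at 0 h (SD, n = 3 each), a log2 fold change of -2.43 (SE 0.48, limma adjusted p 0.0433). Without control library 3 the change was -2.82 (limma adjusted p 0.0316), and without 12 h library 3 it was -2.54 and lost its call (limma adjusted p 0.139). At 48 h gapdh stood at 285, 271 and 126 TPM, above every 12 h library, with a change of 1.68 that did not pass (limma adjusted p 0.0945).

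The member named gapdh-2, which the table describes as the testis-specific form of the same enzyme, was the most abundant member. It stood at 757, 636 and 607 TPM at 0 h, with 784, 834 and 829 TPM at 12 h and 835, 1134 and 779 TPM at 48 h. Its change at 12 h was 0.30 (limma adjusted p 0.414) and so had the opposite sign to gapdh. The ratio of gapdh to gapdh-2 was 0.635, 0.727 and 0.346 at 0 h, 0.137, 0.0415 and 0.0922 at 12 h, and 0.341, 0.239 and 0.162 at 48 h. The 12 h ratios lay below all others. The gene gapdh is a common reference for normalising quantitative PCR, and in these libraries it ranged from 34.6 to 481 TPM.

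**Figure D2:**
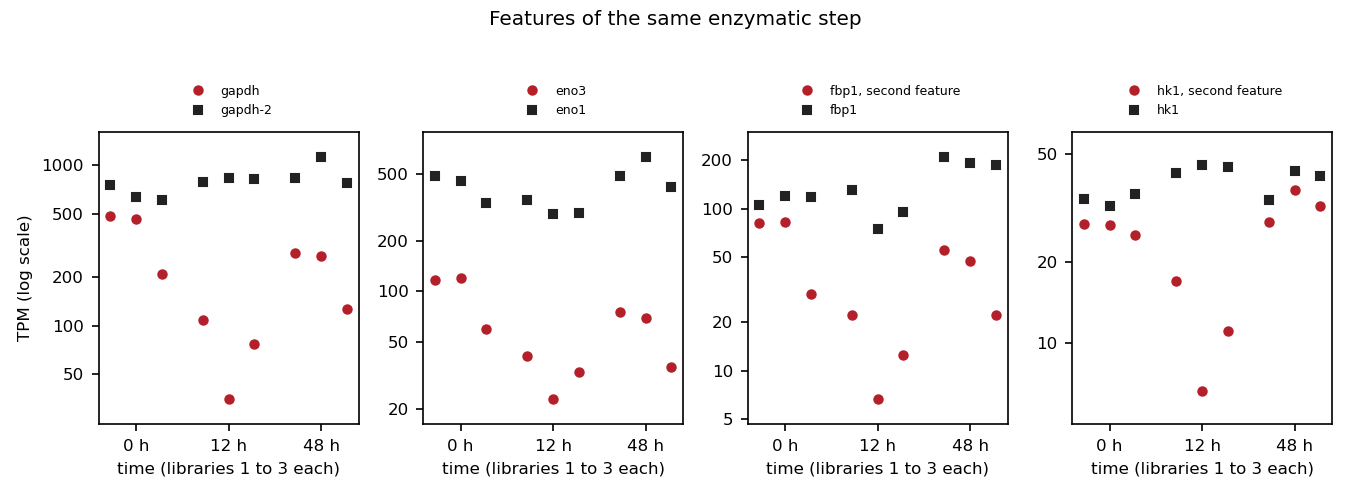
TPM on a log axis, in libraries 1 to 3 of each time in order, for 4 pairs of features of the same enzymatic step (red circles and black squares as named above each panel). gapdh, eno3 and the second features of fbp1 and hk1 were lowest in 12 h library 2, where gapdh stood at 34.6 TPM, while gapdh-2 stayed between 607 and 1134 TPM.

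The enolases share the step from 2-phosphoglycerate to phosphoenolpyruvate. Beta-enolase (eno3), the muscle form in mammals, stood at 116, 120 and 59.6 TPM at 0 h, with 41.2, 22.96 and 32.9 TPM at 12 h and 75.6, 69.2 and 35.3 TPM at 48 h. The 12 h and 0 h libraries did not overlap, and the change of -1.55 (SE 0.36) was the nearest to the threshold at 12 h (limma adjusted p 0.0715). Without control library 3 it passed, at -1.88 (limma adjusted p 0.0365). Alpha-enolase (eno1), the widespread form, stood at 486, 451 and 333 TPM at 0 h, with 350, 289 and 293 TPM at 12 h and 483, 627 and 419 TPM at 48 h. Its change was also negative at 12 h, at -0.43 (limma adjusted p 0.314), and was 0.70 for 48 h against 12 h (SE 0.19, limma adjusted p 0.0906). Its second feature, at 438, 476 and 443 TPM at 48 h, against 300, 231 and 257 TPM at 12 h, rose by 0.79 (SE 0.14, limma adjusted p 0.027), a call lost without 12 h library 3 (limma adjusted p 0.128).

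The other lower steps did not pass. Phosphoglycerate kinase (pgk1) lay between 99.6 and 142 TPM, the mutase pgam1 between 29.6 and 90.6 TPM and pyruvate kinase (pkm) between 102 and 202 TPM. Bisphosphoglycerate mutase (bpgm), which in mammals makes the 2,3-bisphosphoglycerate of red cells, and gamma-enolase (eno2), the neuronal form, stayed under 5 TPM. Lactate dehydrogenase A (ldha), which turns pyruvate into lactate, stood at 234, 363 and 304 TPM at 12 h, against 234, 208 and 149 TPM at 0 h. The lowest 12 h library was level with the highest control to within 1 TPM, and the change of 0.61 did not pass (SE 0.21, limma adjusted p 0.195). The 5 members of the pyruvate dehydrogenase complex, the entry to the citrate cycle, had changes between -0.38 and 0.35 in all 3 comparisons. The most abundant, dihydrolipoamide dehydrogenase (dld), stood at 134, 129 and 118 TPM at 0 h, with 122, 112 and 126 TPM at 12 h and 137, 147 and 130 TPM at 48 h.

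Of the 6 gluconeogenic members, 1 passed. Fructose-1,6-bisphosphatase 1 (fbp1), which undoes the phosphofructokinase step, stood at 209, 192 and 186 TPM at 48 h, against 131, 74.5 and 94.9 TPM at 12 h. Every 48 h library was above every library of the other times. The mean was 196 ± 11.9 TPM at 48 h, against 100.1 ± 28.5 TPM at 12 h (SD, n = 3 each), a log2 fold change of 0.998 (SE 0.19, limma adjusted p 0.0378). Against the 106, 120 and 118 TPM at 0 h the change was 0.77 and did not pass (SE 0.19, limma adjusted p 0.409), and it was 0.41 with the fbp1 features added up. The call for 48 h against 12 h held in 2 of the 10 fits named above and had a limma adjusted p of 0.138 without 12 h library 3.

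At 12 h against 0 h the first fbp1 feature changed by -0.23 (limma adjusted p 0.623). A second fbp1 feature had the same sign and a larger change. It stood at 22.1, 6.66 and 12.5 TPM at 12 h, against 82.2, 82.9 and 29.7 TPM at 0 h, with a change of -2.16 (SE 0.51, limma adjusted p 0.0772). At 48 h it stood at 55.8, 47.5 and 22.1 TPM. Its change was 1.58 against 12 h (limma adjusted p 0.124) and -0.58 against 0 h (limma adjusted p 0.673). With the fbp1 features added up, the change for 48 h against 12 h was 1.10 and kept its call (limma adjusted p 0.045). Where near-identical features share reads, the counting could split them, so the level of each feature of a pair is less certain than that of a gene with 1 feature.

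Glucose-6-phosphatase (g6pc), which releases free glucose, varied widely within each group. It stood at 33.9, 31.1 and 7.41 TPM at 0 h, with 44.3, 8.73 and 26.4 TPM at 12 h and 55.5, 17.4 and 10.4 TPM at 48 h. The cytosolic carboxykinase pck1 did likewise, with 6.92 to 14.6 TPM at 0 h, 3.0 to 17.8 TPM at 12 h and 7.53 to 40.7 TPM at 48 h. The mitochondrial form pck2 stood at 43.3, 24.4 and 30.4 TPM at 12 h, against 78.6, 76.7 and 38.8 TPM at 0 h, with a change of -0.93 (limma adjusted p 0.262). The ubiquitous glucose-6-phosphatase g6pc3 lay between 10.3 and 21.5 TPM, and fbp2, the muscle form in mammals, between 0.70 and 4.49 TPM.

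Most members of the hexose side steps feed other sugars and glycogen into the pathway, while minpp1 is described as a phosphatase of inositol polyphosphates. Phosphoglucomutase 1 (pgm1), which joins glucose 6-phosphate to glycogen through glucose 1-phosphate, stood at 61.9, 75.9 and 65.5 TPM at 48 h, against 46.1, 33.4 and 38.8 TPM at 12 h. Every 48 h library was above every other library. The mean was 67.7 ± 7.25 TPM at 48 h, against 39.4 ± 6.34 TPM at 12 h (SD, n = 3 each), a log2 fold change of 0.77 (SE 0.15, limma adjusted p 0.0413). Against the 47.4, 46.04 and 45.3 TPM at 0 h it was 0.54 and did not pass (limma adjusted p 0.409). The call against 12 h held in 2 of the 10 fits and had a limma adjusted p of 0.149 without 12 h library 3. The epimerase galm, the mutase pgm2 and the phosphatase minpp1 did not pass, with changes between -0.27 and 0.51.

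Among the enzymes of alcohol, aldehyde and acetate that KEGG draws into the same map, 5 were members and none passed in any comparison. The acetyl-CoA synthetase acss2 was the most abundant, at 64.8, 68.5 and 73.9 TPM at 0 h, with 90.6, 59.8 and 78.5 TPM at 12 h and 92.4, 90.1 and 104 TPM at 48 h. The 4 other proteins that carry the term did not pass either. The splicing-related luc7l3 was the most abundant of them, at 61.2, 62.6 and 71.7 TPM at 0 h, with 68.7, 68.3 and 69.2 TPM at 12 h and 72.7, 91.8 and 87.1 TPM at 48 h.

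**Figure D3:**
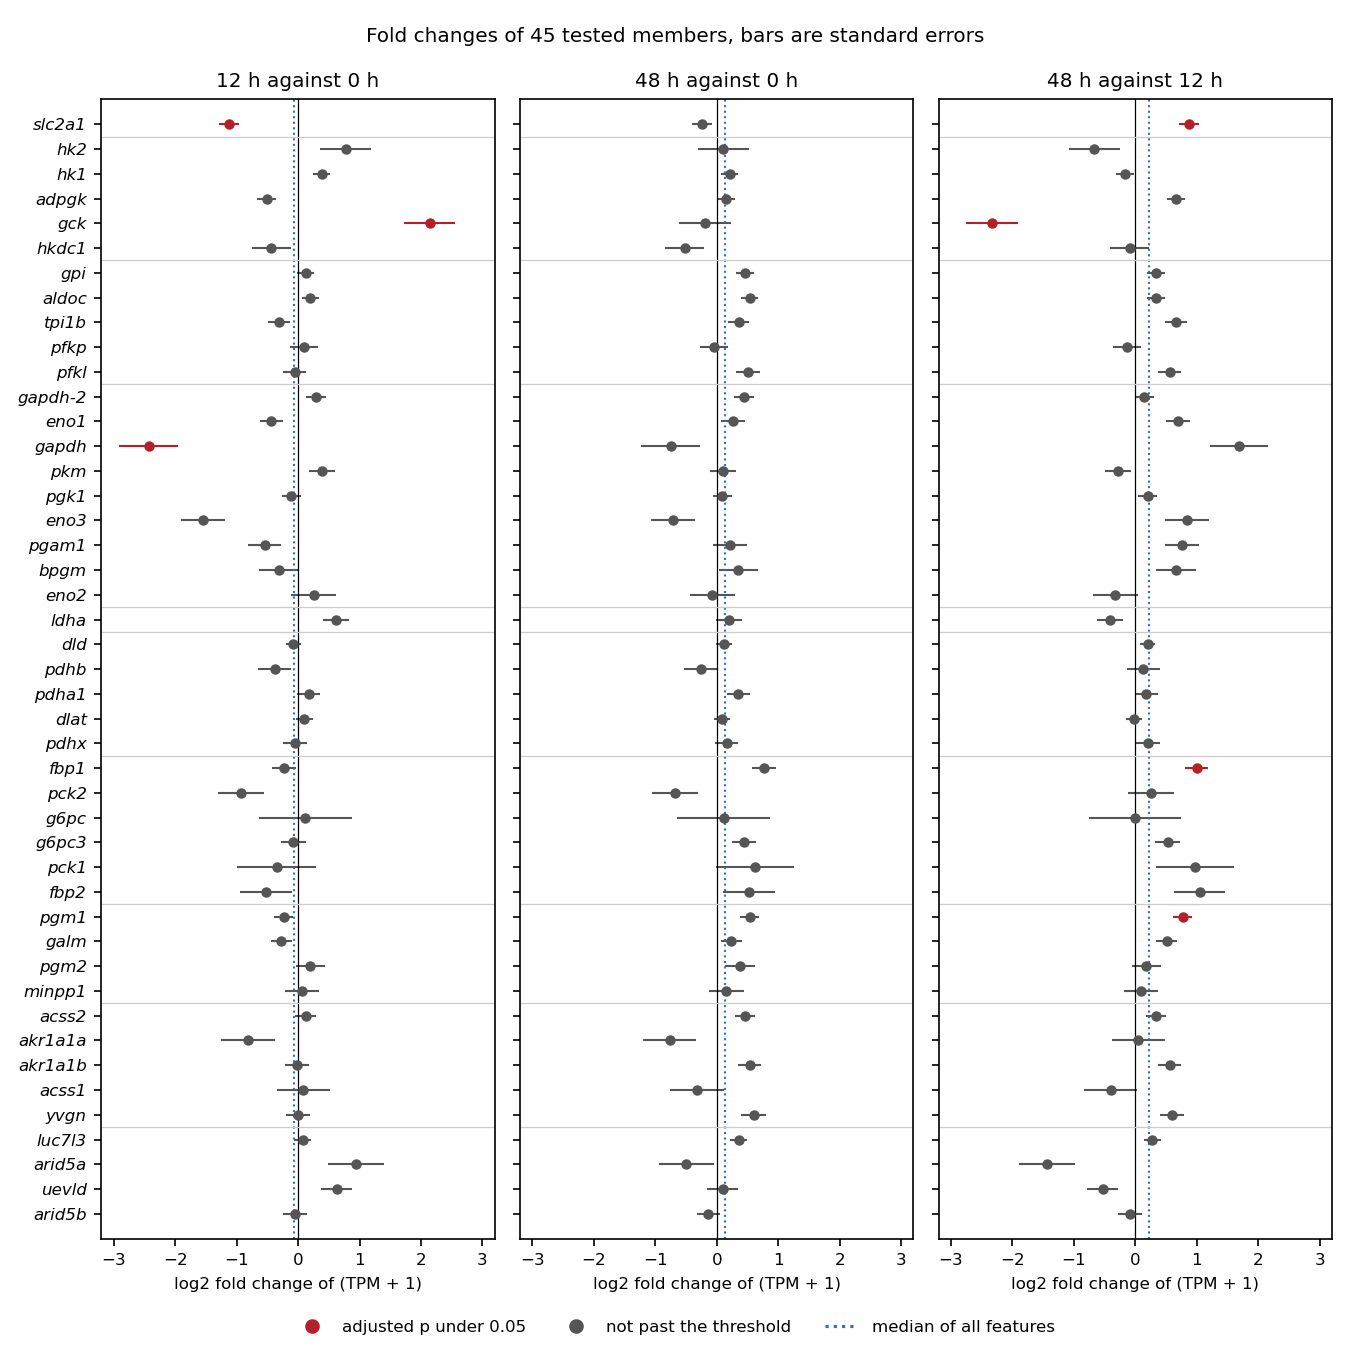
Log2 fold change of (TPM + 1) with its standard error for 45 of the tested members in each comparison, grouped by role from slc2a1 at the top to the 4 other proteins at the bottom; red marks an adjusted p under 0.05 and the dotted line the median of all features tested. The called members are 3 at 12 h against 0 h, 0 at 48 h against 0 h and 4 at 48 h against 12 h.

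At 48 h, 0 of the 46 members passed against 0 h by limma, with or without its trend, beside 0.011% of all features. At an unadjusted p under 0.05 there were 10 of the 46 members, all higher at 48 h, beside 5038 of 45473 features (11.1%) in either direction. Features were not counted by direction at this threshold, so the direction of the 10 has no share beside it. The libraries did not overlap, with 48 h higher, in 14 members (30.4%), against 12.3% of all features. With 48 h lower it was 0 members, against 3.95% of all features. After the filter of 5 TPM the shares with 48 h higher were 31.0% of members and 18.3% of features. The 14 were spread over the roles, with 4 in the upper steps (gpi, aldoc, tpi1b and pfkl), 3 in the alcohol, aldehyde and acetate enzymes, 2 each in lower glycolysis and gluconeogenesis, and pgm1, pdha1 and luc7l3. The lowest unadjusted p belonged to fbp1, aldoc and pgm1, with changes of 0.77, 0.54 and 0.54, and these and gpi had a limma adjusted p of 0.409. The median change of the tested members was 0.16, beside 0.13 for all features tested.

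Between 48 h and 12 h, 4 members passed, with slc2a1, fbp1 and pgm1 higher at 48 h and gck lower. These are 8.70% of members, beside 1.68% of all features, and after the filter of 5 TPM 11.9% of members beside 7.89% of features. The 11.9% again counts gck, which passed that filter only through the 12 h libraries, so the filtered shares carry the same limit. Of all features 1.07% were called higher and 0.611% lower at 48 h. The libraries did not overlap in 19 members with 48 h higher (41.3%, against 20.5% of all features, and 40.5% against 28.6% after the filter of 5 TPM) and in 3 with 48 h lower (6.52%, against 7.61%). The median change was 0.23 over the members and 0.21 over all features. This comparison depends on scaling. Quantile normalization moved the median of all features to 0.04, and turned the 485 features higher and 278 lower at 48 h into 264 higher and 358 lower. Under it fbp1, pgm1 and gck kept their direction and call, slc2a1 kept its direction but not its call, and eno1 passed. The 3 comparisons share libraries, so the 12 h and 48 h values above are not independent of each other.

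**Figure D4:**
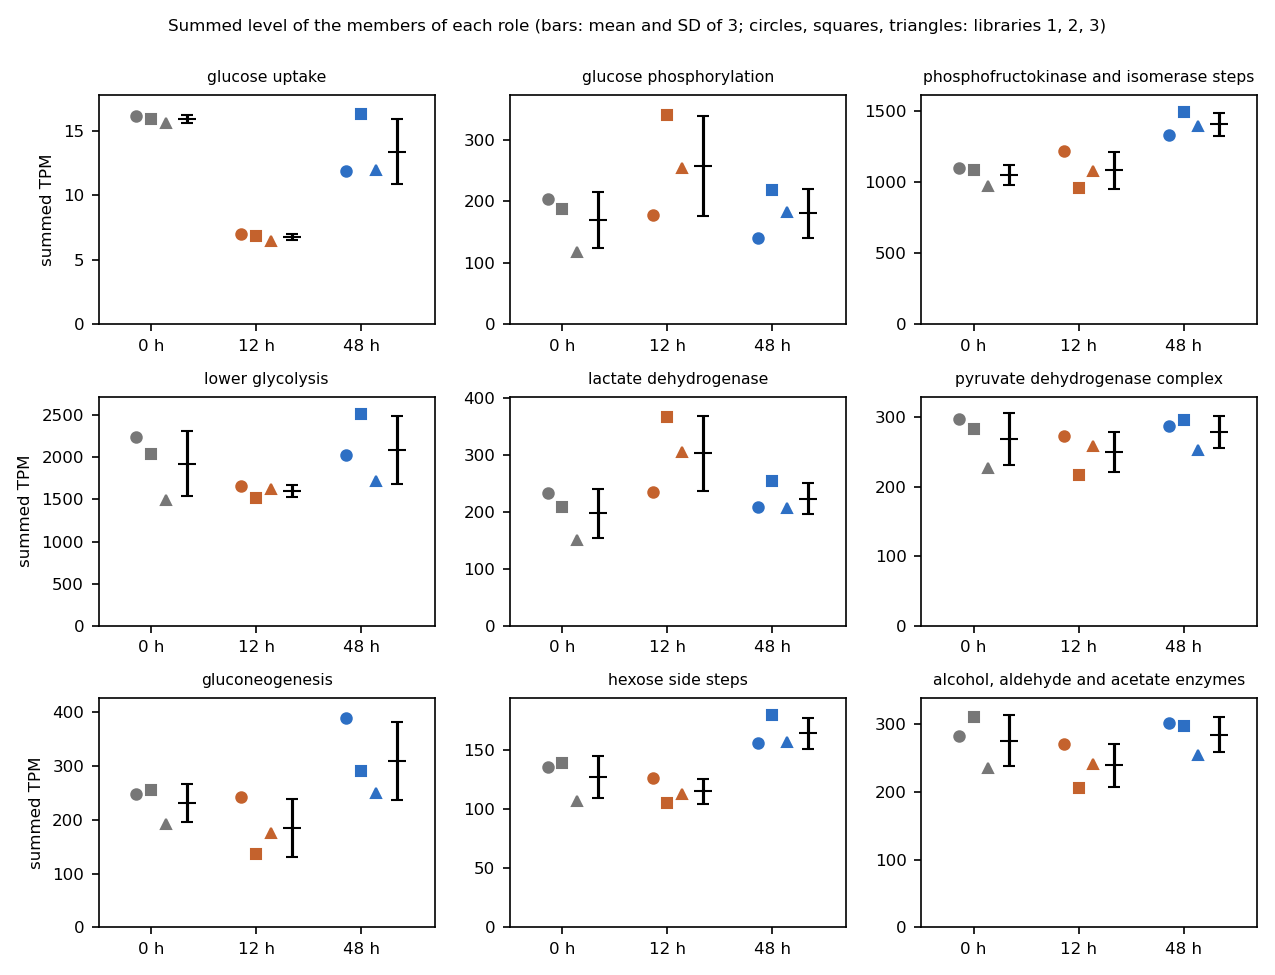
Summed TPM of the members of each role (axes from 0) by time after poly(I:C), with 1 symbol per library and the mean with SD of 3 libraries. A single member that is not reported here is left out, so the order of times holds only for the members summed. Among these, the phosphofructokinase and isomerase steps held 1336 to 1496 TPM at 48 h, above the other times. The hexose side steps were highest at 48 h, at 156 to 179 TPM.

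Summed over 44 enzymes and the transporter, the level was 4264 ± 666 TPM at 0 h, 4041 ± 179 TPM at 12 h and 4949 ± 575 TPM at 48 h (SD, n = 3 each). The 48 h libraries, at 4423 to 5562 TPM, were all above the 12 h libraries, at 3855 to 4211 TPM, and overlapped the controls, at 3507 to 4759 TPM. An enzyme that is not reported here is left out of this sum, so this order holds only for the members summed. Gluconeogenic members summed to 309 ± 72.0 TPM at 48 h, against 184 ± 53.0 TPM at 12 h, and their ranges did not overlap, at 249 to 389 TPM at 48 h and 136 to 241 TPM at 12 h. Without fbp1 the other 5 summed to 180, 97.3 and 62.6 TPM at 48 h, against 111, 62.0 and 80.7 TPM at 12 h, and overlapped. The hexose side steps summed to 164 ± 13.2 TPM at 48 h, against 115 ± 10.8 TPM at 12 h, again with no overlap.

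Some markers of proximal tubule cells moved with several of these members. The 12 of 13 listed markers found in the table summed to 327 to 910 TPM at 0 h, 313 to 411 TPM at 12 h and 254 to 497 TPM at 48 h, with control library 3 the lowest control. The sums at 12 h and 0 h overlapped, and the median change of the list at 12 h against 0 h was -0.80. At most 1 of the 12 was at 0 in any library. The marker slc22a6 did not fall, at 152, 109 and 148 TPM at 12 h, against 143, 147 and 67.1 TPM at 0 h. The endocytic adaptor amn, the peptidase anpep and the water channel aqp1 fell at 12 h against 0 h, by 2.22, 3.13 and 1.60 on the log2 scale (limma adjusted p 0.00954, 0.0263 and 0.0322). These passed without control library 3 and not without 12 h library 3 (limma adjusted p 0.0521, 0.107 and 0.119). The same 2 control libraries that were high in these markers were high in gapdh, eno3, pck2 and the second fbp1 feature. Distal tubule markers (5 of 8 found) summed to 245 to 305 TPM at 12 h and 283 to 750 TPM at 0 h. The part of these markers in the results above was not tested.

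Markers of blood and immune cells also differed between the times. The neutrophil receptor cxcr2 stood at 7.44, 4.6 and 5.66 TPM at 12 h, against 33.7, 31.4 and 22.3 TPM at 0 h (log2 fold change -2.12, limma adjusted p 0.00585), and at 24.6, 37.1 and 31.2 TPM at 48 h, higher than at 12 h by 2.21 (limma adjusted p 0.00541). The macrophage mannose receptor mrc1 likewise fell by 0.87 at 12 h against 0 h and rose by 0.91 at 48 h against 12 h (limma adjusted p 0.0179 and 0.015). This is the order of times seen in slc2a1. Of the other neutrophil markers, mmp9 went the other way, at 285, 488 and 405 TPM at 12 h, against 260, 234 and 98.0 TPM at 0 h. The rest (mpo, csf3r, ncf1 and cybb) overlapped between 12 h and 0 h. The median change of the neutrophil list at 12 h against 0 h was 0.05. At 12 h against 0 h, the erythroid factor tal1 fell by 1.53 (limma adjusted p 0.0253) and lgals3 of macrophages rose by 0.70 (limma adjusted p 0.0446). Without 12 h library 3 the calls of cxcr2 and tal1 held and those of mrc1 and lgals3 did not, and lgals3 also lost its call without control library 3 (limma adjusted p 0.0587).

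As whole lists, the neutrophil markers (6 of 6 found) summed to 1806 to 4030 TPM at 0 h, 2771 to 3825 TPM at 12 h and 2532 to 4018 TPM at 48 h. Those of monocytes and macrophages (4 of 7) summed to 440 to 494 TPM at 0 h, 403 to 459 TPM at 12 h and 350 to 497 TPM at 48 h. Proliferation markers (6 of 6) summed to 288 to 616 TPM at 0 h, 219 to 472 TPM at 12 h and 656 to 704 TPM at 48 h, so that their sum was highest at 48 h. Single markers did not all follow the sum. At 48 h mki67, top2a and pcna overlapped control library 3, and mcm2 overlapped the 12 h libraries. In every comparison 0 of the 6 passed. Control library 3 stood apart in several lists. Its erythroid markers (5 of 14 found) summed to 6530 TPM, against 1530 and 1587 TPM in its fellow controls, with 913 to 1226 TPM at 12 h and 416 to 1240 TPM at 48 h. Its T and NK cell markers (4 of 9) summed to 266 TPM, against 44.5 and 47.7 TPM in its fellows, with 41.9 to 117 TPM at 12 h and 144 to 157 TPM at 48 h. No marker of these 5 lists was at 0 in any library. Liver markers (8 of 11) summed to 52.3 to 263 TPM at 0 h, 70.3 to 77.5 TPM at 12 h and 34.2 to 51.8 TPM at 48 h. At 0 h most of that sum was apoa1, at 241, 223 and 39.4 TPM. Low liver markers differed from the sum. The marker tf stood at 1.58, 12.1 and 6.70 TPM at 12 h, against 0.23, 0.29 and 0.64 TPM at 0 h. Both fga and fgg were also higher at 12 h than at 0 h without overlap. The marker cps1 was lower without overlap, and apoa1, apob, fgb and f2 overlapped. The part of these cells in the results above was not tested.

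Some glycolytic features, most of them of muscle type, were high in control library 3 alone, and were singled out after their values were seen. The muscle phosphofructokinase pfkm stood at 14.5 TPM there and at 0.76 TPM or less in the other 8 libraries. The muscle mutase pgam2 stood at 11.1 TPM there and at 1.08 TPM or less elsewhere. A feature without a name that matches aldolase A, the muscle aldolase of mammals, stood at 41.3 TPM there and at 4.94 TPM or less elsewhere. A pair of fragments described only as pyruvate kinase stood at 9.77 and 5.23 TPM there and at 1.13 TPM or less elsewhere. The member eno3, a muscle form in mammals, did not follow these. In control library 3 eno3 stood at 59.6 TPM, below the 116 and 120 TPM of its fellows. The member fbp2, also a muscle form in mammals, followed them in part. It was highest in control library 3, at 4.49 TPM, against 1.0 and 1.22 TPM in its fellows. It was not high there alone, with 2.53 to 3.69 TPM at 48 h. The muscle markers ckm, mylpf and tnni2 stood at 23.1, 27.8 and 22.5 TPM in the same library and at 6.44 TPM or less elsewhere. The other 4 muscle markers found did not follow them. In control library 3 ttn and tnnt3 stood at 5.83 and 2.81 TPM, below the 16.5 and 6.15 TPM or more of its fellows, while atp2a1 and pygm were highest in 48 h library 2 and 12 h library 1. The whole muscle list (7 of 12 found) summed to 124 TPM in control library 3 and to 45.9 to 67.3 TPM in the other 8 libraries. Of the defining markers, tnni2 was at 0 in 5 libraries and ckm in 2. The aldolase A feature did not pass in any comparison, and pfkm and pgam2 were not tested.

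**Figure D5:**
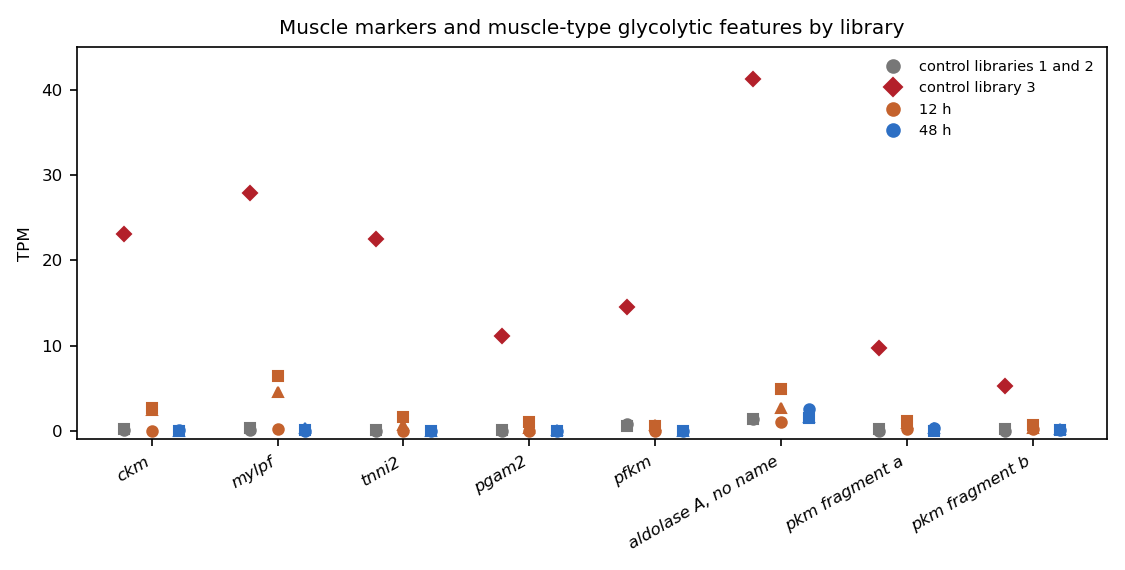
TPM by library of 3 muscle markers (ckm, mylpf and tnni2) and of 5 glycolytic features chosen for the same pattern. Red diamonds are control library 3, grey the other controls, orange 12 h and blue 48 h. Circles, squares and triangles are libraries 1, 2 and 3. Control library 3 stood at 5.23 to 41.3 TPM in each and the other 8 libraries at 6.44 TPM or less.

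The member tdh3 has a fish protein as its best match but the name of a budding yeast glyceraldehyde-3-phosphate dehydrogenase. It stood at 23.5 TPM in 12 h library 3, an estimated 27 reads, and at 0 in the other 8 libraries. The lactate dehydrogenase ldhb was at 3.46 TPM in 12 h library 2 and at 1.21 TPM or less elsewhere.

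Features of the pathway without a name are not members, and 7 had a fish match. The most abundant, described as alcohol dehydrogenase 1-like, stood at 172, 73.0 and 116 TPM at 12 h, against 515, 505 and 254 TPM at 0 h. These did not overlap, and the change of -1.83 did not pass (SE 0.42, limma adjusted p 0.0737). An alcohol dehydrogenase class-3 feature stood at 129, 157 and 91.9 TPM at 48 h, against 75.6, 23.5 and 55.1 TPM at 12 h, with a change of 1.39 (limma adjusted p 0.0888).

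Neighbouring pathways were read from lists of usual gene names. In the pentose phosphate pathway, which branches from glucose 6-phosphate, 0 of 11 genes passed in any comparison. In the citrate cycle and pyruvate entry 0 of 26 passed, and of the hormonal, hypoxia and nutrient regulators of glycolysis 0 of 27. Among 13 genes of glycogen metabolism, 2 rose at 48 h against 12 h, beside the 1.68% of all features called (7.89% after the filter of 5 TPM), and none passed in the other comparisons. This list and those below were not recounted after that filter, so the filtered shares are at another setting than the list counts. The debranching enzyme agl stood at 46.8, 62.7 and 51.3 TPM at 48 h, against 31.2, 21.4 and 25.3 TPM at 12 h (log2 fold change 1.02, limma adjusted p 0.0258). The phosphorylase kinase subunit phkb stood at 27.0, 33.7 and 30.7 TPM at 48 h, against 16.4, 9.10 and 9.98 TPM at 12 h (1.33, limma adjusted p 0.0281). The phosphorylases pygl, pygb and pygm, which release glucose 1-phosphate from glycogen, did not pass. Without 12 h library 3 neither call held (limma adjusted p 0.115 and 0.122).

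Among 13 genes of fructose, mannose and galactose metabolism, 3 passed at 12 h against 0 h and 2 at 48 h against 12 h. The shares of all features called were 1.42% and 1.68%, and 4.42% and 7.89% after the filter of 5 TPM. Phosphomannomutase 1 (pmm1), which converts mannose 6-phosphate to mannose 1-phosphate, fell to 4.02, 1.72 and 2.17 TPM at 12 h, against 25.95, 22.5 and 25.5 TPM at 0 h (log2 fold change -2.87, limma adjusted p 0.00288). It stood at 16.4, 17.3 and 10.4 TPM at 48 h, higher than at 12 h by 2.13 (limma adjusted p 0.0105). Aldose reductase (akr1b1), which makes sorbitol, stood at 19.2, 13.8 and 16.2 TPM at 12 h, against 34.6, 36.1 and 35.5 TPM at 0 h (-1.08, limma adjusted p 0.0406), and rose at 48 h against 12 h by 1.13 (limma adjusted p 0.0328). The epimerase gale, of galactose use, rose to 37.96, 31.0 and 33.0 TPM at 12 h, against 17.6, 19.5 and 18.0 TPM at 0 h (0.85, limma adjusted p 0.0253). Without 12 h library 3 the 12 h call of pmm1 held (limma adjusted p 0.0249) and the others of this list did not. Without control library 3 the 12 h call of akr1b1 was lost (limma adjusted p 0.06).

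Of 16 other genes listed for hexose, lactate and pyruvate transport, 1 passed, at 48 h against 12 h. Of all features 1.68% were called in that comparison, and 7.89% after the filter of 5 TPM. The glucose transporter slc2a8 stood at 9.26, 9.66 and 7.5 TPM at 48 h, against 4.21, 1.96 and 3.31 TPM at 12 h (1.27, limma adjusted p 0.0499; 0.142 without 12 h library 3). The sodium-coupled glucose carriers slc5a1 and slc5a2, which in mammals recover glucose from the filtrate, did not pass. The carrier slc5a1 stood at 69.4, 49.5 and 56.4 TPM at 12 h, against 110, 110 and 43.8 TPM at 0 h, the low control being library 3. The carrier slc2a3, the high-affinity glucose transporter of mammalian neurons and leukocytes, stood at 51.3, 69.8 and 68.0 TPM at 12 h, against 41.3, 50.1 and 52.2 TPM at 0 h, and overlapped. It was above slc2a1 in every library.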

How the data were processed

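RNA from whole kidney was sequenced in 9 libraries, grouped and numbered from the sample labels. The authors deposited 1 table, with values taken to be TPM although its header names no unit: columns total 993873 to 996068, and 97.0% to 98.0% of low values lie within 0.1 of a whole step that shrinks with feature length. Assembler, aligner and counting tool are not given in the sources used here. With no counts, limma 3.58.1 in R 4.3.3 (trend and robust) was run on log2(TPM + 1) over features that reached 1 TPM in 3 or more libraries, using 1 coefficient per group and two-sided tests. It was tested on simulated data with independent errors, which do not hold the differences among libraries described above, so that check says nothing about them.

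Names were compared without regard to capitals, which gave 50 members (60 as written), and "-" was not taken as a name. Members called in any comparison, the most abundant member of each role and the 3 nearest the threshold in each comparison are named. The members, gene lists, marker lists and tests were chosen with earlier results of these data known. Alternatives were quantile normalization, no trend, other filters and pseudocount, replicate block, compared groups only, leaving out each library, averaging control libraries 1 and 2, other thresholds and all features of a name added up. Names as written and leaving out the 4 other proteins were chosen after seeing the data. A single member is not reported here: it stays in the counts and the fit but in no figure or sum.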

Additional observations from a re-analysis of the deposited data

Results flagged for a closer look

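Of the features with the pathway term, 35 have no fish match and are not members, and 3 of them were at 0 in all controls and present in 12 h library 3. These 3 carry names of budding yeast genes. A feature named CDC19 (pyruvate kinase) stood at 15.02 TPM in that library and at 0 in all controls. A feature named ADH1 (alcohol dehydrogenase) stood at 21.29 TPM and one named YAL037C-B at 11.99 TPM, both at 0 in all controls. Over the whole table, 16 features reached 5 TPM in that library and were at 0 in all of the other 8. Each of the other 8 libraries had 0 to 2 such features. The CDC19 feature is not among the 16, as it stood at 0.67 TPM in 48 h library 1.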

How the results depend on the processing

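Directions of the called members, and of the 3 nearest the threshold in each comparison, held under every alternative run. For 12 h against 0 h, the 3 called members became 1 without the trend, 1 with a pseudocount of 0.1, 0 with control libraries 1 and 2 averaged and 0 at an adjusted p under 0.01, and 0 to 4 when 1 library was left out. The count was 0 without control library 1, control library 2, 12 h library 2 or 12 h library 3, and 1 without 48 h library 2. For 48 h against 12 h, the 4 became 1 without the trend, 1 with only the compared groups, 1 with the control pair averaged, 0 at an adjusted p under 0.01, 1 when a log2 change of 1 or more was also asked for, and 0 to 6 when 1 library was left out. There it was 0 without control library 2, 12 h libraries 2 or 3, or 48 h libraries 2 or 3, and 1 without control library 1 or 48 h library 1. For 48 h against 0 h it was 0 in every setting. Causes were not tested. A fit with the replicate block called 1 member at 12 h against 0 h, 0 at 48 h against 0 h, and 0 between 48 h and 12 h. Deviations of libraries with the same number had correlations of -0.10 to 0.15, so the numbers are not taken to pair libraries. Of the values of these single members under alternatives, 234 kept their side of the threshold, 79 lost it and 7 passed it. The lowest library of gck rested on an estimated 18.1 reads.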
